A study of Homo sapiens with 1536 samples.

Results

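PI3K isoform inhibitors were read out as relative cell numbers of 5 barcoded breast cancer lines grown together in each well. The set holds PI103, a pan-PI3K inhibitor that also inhibits mTOR and DNA-PK, and GSK2636771 and AZD8186, grouped here as inhibitors of the PI3K beta isoform. It also holds IC87114, which is selective for the delta isoform, and PIK93, annotated against PI4K as well as PI3K. Which isoforms a compound inhibited at a given dose was not measured. The compounds were chosen by name, with earlier results of these data known, and all doses, replicates and lines were kept. This gave 40 wells of 5 compounds among the 1536 wells and 180 compounds of the series. The assay, QMAP-Seq, counts cells by sequencing a cell line barcode and an sgRNA from pooled lysates and turns reads into cell numbers with 5 standards of a human embryonic kidney line added to every well in known numbers. The pool held the triple-negative lines BT-20, HCC-38 and MDA-MB-231, the HER2 positive SKBR3 and the estrogen receptor positive ZR-75-1.

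Each line carried doxycycline-inducible Cas9 and 12 sgRNA classes: sgNT, the sum of 5 non-targeting sgRNAs, sgSLC35F2, a control against a solute carrier, and the others against genes of the proteotoxic stress response. All wells, DMSO controls included, held this same pool with Cas9 induced, so the comparisons between compounds carry the knockouts on both sides. Cells were exposed for 72 h to 10, 100, 1000 or 10000 nM of 1 compound in 2 wells per dose, or to DMSO in 96 wells, 6 on each of 16 plates. Nothing in the labels says that the 2 wells of a dose came from separate cultures, so p-values measure the spread between these wells. The value of a line in a well is the mean over its sgRNAs of the cell number as a percentage of the DMSO median, with 12 sgRNAs averaged in 4 lines and 10 in ZR-75-1, where sgHSF1 and sgKEAP1 were left out.

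PI3K phosphorylates a lipid of the plasma membrane downstream of growth factor receptors, and the product recruits Akt, which in turn activates mTOR and promotes growth and survival. The catalytic isoforms differ in tissue and in input: alpha is the main isoform downstream of receptor tyrosine kinases such as HER2, beta takes input from G-protein-coupled receptors, and delta is mostly found in leukocytes. Among these lines SKBR3 has amplified HER2 and BT-20 carries activating mutations in the gene of the alpha isoform.

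A line's share of the readout rests on its barcode, so the 5 barcodes and that of the standards are shown as read in the deposited count tables, 5′ to 3′, with the whole barcode in capitals.
ZR-75-1: ATCACTGG
SKBR3: CGGTGACC
HCC-38: TACAGAGG
MDA-MB-231: TAACAGTT
BT-20: ATTGTCAA
Standards: GCTGGATT
Any 2 of these 8-base barcodes differed at 4 or more bases, and reads with up to 1 mismatch were assigned. In DMSO wells HCC-38 held 42.2% ± 1.29 of the breast cancer reads (SD, n = 96), SKBR3 16.2% ± 1.12, BT-20 15.6% ± 0.651, MDA-MB-231 14.5% ± 0.913 and ZR-75-1 11.5% ± 1.01.

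The 40 wells held 238847 to 1919952 reads (median 627382), against 155067 to 986006 in the DMSO wells (median 522691). The highest was replicate 1 of PI103 at 10 nM, and no line had fewer than 23909 reads in any of the 40 wells. Reads and cell numbers of the standards had a squared correlation (r2, log scales) of 0.932 or more in the DMSO wells. It was lower in replicate 2 of PI103 at 1000 nM (0.910) and replicate 1 of PIK93 at 10 nM (0.917). The 2 replicates of PIK93 at 100 nM, at 0.926 and 0.890, were also lower. The relative cell number varied over the 96 DMSO wells around means of 100.9 to 101.8, with an SD of 10.6 for BT-20, 10.7 for HCC-38, 10.9 for MDA-MB-231, 12.7 for SKBR3 and 14.3 for ZR-75-1. The lowest DMSO well was at 64.3% for ZR-75-1, 68.9% for SKBR3, 78.9% for BT-20, 81.6% for MDA-MB-231 and 84.3% for HCC-38. Well position, as read from the sample numbers, was the same at all doses of a compound. AZD8186 and IC87114 stood in column 1, IC87114, PI103 and GSK2636771 in row H, and PIK93 in the interior of the other 8 plates. The doses of a compound stood on different plates, as did its replicates, so doses also differ in plate. The DMSO wells stood in the interior of the plates, so edge wells were compared with interior wells. At the lowest dose, the 24 column 1 wells of other compounds had a median of 118.7% for HCC-38, against 96.3% in interior wells, 107.3% for MDA-MB-231, against 95.6%, and 105.998% for BT-20, against 95.7%.

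**Figure D1:**
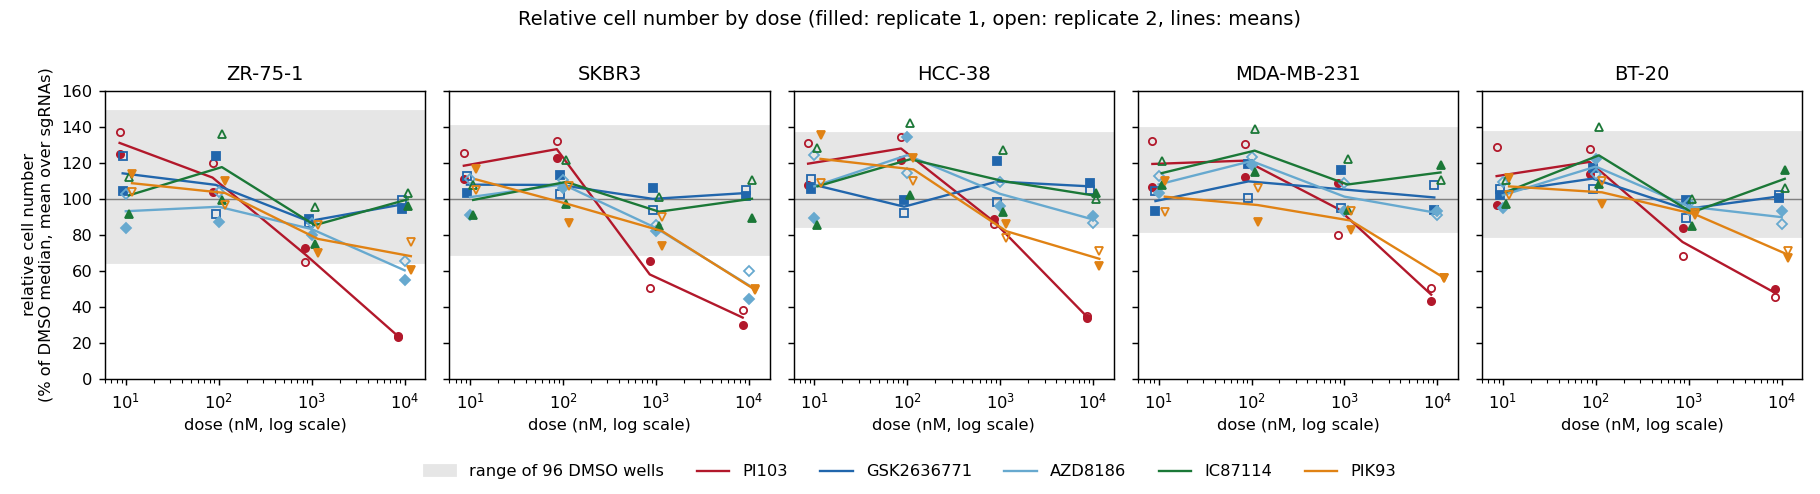
Relative cell number (percent of the DMSO median, mean over sgRNAs) against dose (nM, log scale) in 5 panels, 1 per cell line, with replicate 1 filled, replicate 2 open, a line through the means of 2 wells and the range of the 96 DMSO wells in grey. At 10000 nM PI103 lies below the grey range in all 5 lines, at 23.4% to 47.6%, AZD8186 drops in ZR-75-1 and SKBR3, and GSK2636771 and IC87114 stay within it.

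PI103 lowered cell number in every line at 10000 nM and in 3 of 5 lines at 1000 nM, where 63.7% and 33% of the line-compound combinations of all compounds were lower than DMSO. At 10000 nM the wells of replicate 1 and 2 stood at 23.6% and 23.2% for ZR-75-1, 33.9% and 34.9% for HCC-38, 29.99% and 37.9% for SKBR3, 49.9% and 45.2% for BT-20, and 43.2% and 50.2% for MDA-MB-231. All 10 values were below every one of the 96 DMSO wells, and each line fell with an adjusted p of 0.00091 (exact two-sided permutation test of 2 wells against 96, Benjamini-Hochberg over the 3480 combinations of compound, dose and line), the smallest this design gives. At 1000 nM SKBR3 was lowest, at 65.4% and 50.5%, both under every DMSO well (adjusted p = 0.00091, exact permutation test). ZR-75-1, at 72.8% and 65.1%, and BT-20, at 83.8% and 68.2%, also fell (adjusted p = 0.014 and 0.012, exact permutation test), with 1 and 3 DMSO wells below the higher of their wells. HCC-38, at 88.5% and 85.96%, and MDA-MB-231, at 108.8% and 79.97%, did not pass. Replicate 2 at 1000 nM, the lower well in all 5 lines, had a standards r2 of 0.910, and the part of the standards was not tested. Log-linear interpolation between the 2 highest doses put the dose that leaves 50% of cells at 2142 nM in SKBR3, 2607 nM in ZR-75-1, 5071 nM in HCC-38, 8203 nM in BT-20 and 8526 nM in MDA-MB-231.

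At the 2 lower doses of PI103 the values lay above 100 in all lines on average, with a mean over the 5 lines of 120.2% ± 15.3 at 10 nM and 121.8% ± 10.0 at 100 nM (SD, n = 2). Replicate 2 was the higher of the 2 wells in all 5 lines at both doses, 130.98% against 109.4% at 10 nM and 128.9% against 114.7% at 100 nM as means over lines. ZR-75-1 at 10 nM (125.1% and 137.1%) and SKBR3 (122.9% and 132.3%) and HCC-38 (121.6% and 134.4%) at 100 nM passed the same test upward, with adjusted p of 0.026, 0.018 and 0.014 (exact permutation test). In the 42 row H wells of other compounds at the lowest dose, the mean over the 5 lines had a median of 99.2%. The part of position in the values of PI103 was not tested. None of these 3 calls passed when either replicate was left out.

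GSK2636771, the beta-selective inhibitor in row H, left all lines within the DMSO range at each dose. At 10000 nM its wells stood at 94.5% and 99.1% for ZR-75-1, 108.9% and 104.9% for HCC-38, 101.4% and 104.996% for SKBR3, 100.2% and 102.4% for BT-20, and 93.7% and 107.8% for MDA-MB-231. None of its 20 line-dose combinations passed in either direction, and the smallest unadjusted p was 0.16 (exact permutation test). Its line means at 10000 nM lay between 96.8% and 106.9%.

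AZD8186, the other inhibitor grouped under the beta isoform, lowered cell number at 10000 nM in ZR-75-1 and SKBR3. SKBR3 stood at 44.2% and 59.6%, both below every DMSO well, and fell by 49.01 percentage points from the DMSO mean (adjusted p = 0.00091, exact permutation test). ZR-75-1 stood at 54.7% and 65.7%, with 1 DMSO well below the second, and fell by 41.4 points (adjusted p = 0.0025, exact permutation test). BT-20 stood at 93.4% and 86.2%, HCC-38 at 90.5% and 86.5% and MDA-MB-231 at 93.2% and 90.9%, values that overlap the DMSO wells and did not pass. At 1000 nM the same 2 lines were the lowest, ZR-75-1 at 79.9% and 86.4% and SKBR3 at 82.1% and 85.5%, with adjusted p of 0.17 and 0.15 (exact permutation test), while the triple-negative lines lay between 93.4% and 109.5%. HCC-38 at 100 nM rose (134.5% and 114.1%, adjusted p = 0.031, exact permutation test), a call lost without either replicate. The well stood in column 1, where other compounds had the HCC-38 median of 118.7% at the lowest dose, and the part of position in this value was not tested.

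IC87114, the delta-selective inhibitor, passed the test downward in no line at any dose. At 10000 nM its wells stood at 95.9% and 103.5% for ZR-75-1, 103.3% and 99.9% for HCC-38, 89.6% and 110.4% for SKBR3, 116.1% and 106.1% for BT-20, and 118.9% and 110.4% for MDA-MB-231. Its replicates lay far apart at 100 nM, with a mean over lines of 104.3% in replicate 1 and 135.7% in replicate 2. At that dose MDA-MB-231 (114.9% and 138.6%) and BT-20 (108.4% and 139.95%) rose (adjusted p = 0.019 and 0.029, exact permutation test). The call in BT-20 was lost without replicate 2 and that in MDA-MB-231 without either replicate. These wells also stood in column 1, where other compounds had the medians of 107.3% and 105.998% in these lines at the lowest dose, and the part of position was not tested.

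PIK93 lowered all 5 lines at 10000 nM, to a lesser depth than PI103. SKBR3 stood at 49.7% and 49.1%, MDA-MB-231 at 56.2% and 56.1%, HCC-38 at 62.4% and 70.9%, ZR-75-1 at 60.4% and 75.8%, and BT-20 at 67.1% and 70.8%. SKBR3 was the lowest line, and the interpolated dose that leaves 50% of its cells was 9568 nM. In ZR-75-1 1 DMSO well lay below the higher of the 2 wells, and in the other 4 lines both wells were below all DMSO wells. The adjusted p was 0.00091 for SKBR3 and MDA-MB-231, 0.0017 for HCC-38, 0.0025 for BT-20 and 0.013 for ZR-75-1 (exact permutation test). At 1000 nM HCC-38 was the single line that passed (85.8% and 78.1%, adjusted p = 0.049, exact permutation test), with ZR-75-1 at 69.9% and 85.5%, SKBR3 at 73.99% and 90.1%, MDA-MB-231 at 82.5% and 93.2% and BT-20 at 90.9% and 91.9%. HCC-38 at 10 nM rose (135.4% and 108.96%, adjusted p = 0.0497, exact permutation test). Both HCC-38 calls were lost without either replicate and when reads were divided by the standards without a curve.

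Over the 5 compounds, 16 of 100 line-dose combinations were lower than DMSO and 7 were higher, where 30.8% and 1.81% of the combinations of all compounds were. At 10000 nM 12 of 25 were lower and at 1000 nM 4 of 25, and none of the 50 at 10 and 100 nM was. The 7 values above DMSO were all at 10 or 100 nM, 1 of them with PIK93 in interior wells and the others in edge wells. They were 2 of 25 at 10 nM and 5 of 25 at 100 nM. Over all compounds, 22 and 18 of 870 were higher at the lowest 2 dose levels. The DMSO wells were interior wells, and the part of position was not tested. Each dose of a compound stood on its own plates. Scaled to the DMSO wells of the same plate, all 23 calls passed again. Of the 16 calls downward, 8 passed without replicate 1 and without replicate 2: all 5 lines with PI103, SKBR3 with AZD8186, and SKBR3 and MDA-MB-231 with PIK93, each at 10000 nM. Exchanging wells only within a plate allows no p under 0.0204. None of the 16 passed in that setting, where the smallest adjusted p of the 5 compounds was 0.0628 (exact permutation test). Of the 16, 15 reached the smallest possible p, all but ZR-75-1 with PI103 at 1000 nM.

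The knockouts of a line give repeated looks at the same wells, though they are not replicates of a treatment. At 10000 nM PI103 put both wells below every DMSO well of the same line and sgRNA for 52 of 58 line-sgRNA pairs, PIK93 for 25, AZD8186 for 7 and GSK2636771 and IC87114 for 0, against 44.8% of the pairs over all compounds. The sgRNA means ran from 17.5% to 58.4% with PI103, from 37.5% to 84.9% with PIK93 and from 73.5% to 138.6% with GSK2636771. With AZD8186 all 12 sgRNAs of SKBR3 had means between 42.3% and 63.7%, and those of ZR-75-1 ran from 46.3% to 87.97%. In the triple-negative lines they lay between 77.6% and 111.2% for MDA-MB-231, 78.9% and 104.6% for HCC-38, and 76.8% and 98.5% for BT-20. The range of SKBR3 overlapped with none of the triple-negative lines, whereas that of ZR-75-1 overlapped with each of them. How often such ranges overlap over all compounds was not counted, so they are given as values only.

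The AUC, the area under a curve of cell number against dose, sums the 4 doses with weights of 0.5 at the lowest and highest and 1 at the others, so that a compound without effect has an AUC of 300. In ZR-75-1 the 2 replicates of AZD8186 had AUCs of 236.3 and 274.4, those of PI103 250.7 and 265.3, those of PIK93 266.9 and 271.7, those of GSK2636771 312.1 and 289.4 and those of IC87114 267.98 and 339.5. In MDA-MB-231 PIK93 had the lowest AUCs, 252.5 and 273.6, below those of PI103 at 295.9 and 301.4, which were raised by its values above 100 at the lower doses. The order of compounds by AUC therefore differed from the order at the highest dose, where PI103 was lowest in each line.

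**Figure D2:**
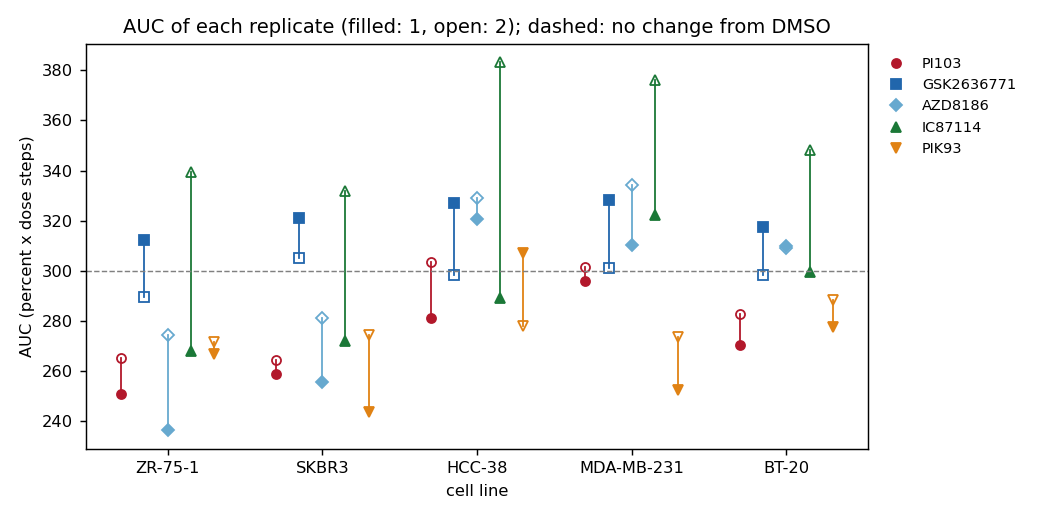
AUC (percent summed over dose steps) of each replicate of the 5 compounds in the 5 cell lines, with replicate 1 filled, replicate 2 open, and a dashed line at 300, the value of no change from DMSO. PI103 and PIK93 lie under 300 in most lines, AZD8186 in ZR-75-1 and SKBR3, and the replicates of IC87114 are far apart, 289.03 and 383.2 in HCC-38.

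The 10 pairs of compounds were compared in each line at matched doses, 200 comparisons in all, with limma fits in which all compounds shared an estimate of the replicate spread. At an adjusted p under 0.05, 55 of 200 passed, 1 of 50 at 10 nM, 8 at 100 nM, 10 at 1000 nM and 36 at 10000 nM (Benjamini-Hochberg over the 200). This is 27.5% of the comparisons, against 45% of all pairs of compounds in the collection, of which 15.8%, 39.6%, 53.9% and 70.6% passed at the 4 dose levels. For AUC 22 of 50 pair-line comparisons passed, against 67.2% of all pairs.

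**Figure D3:**
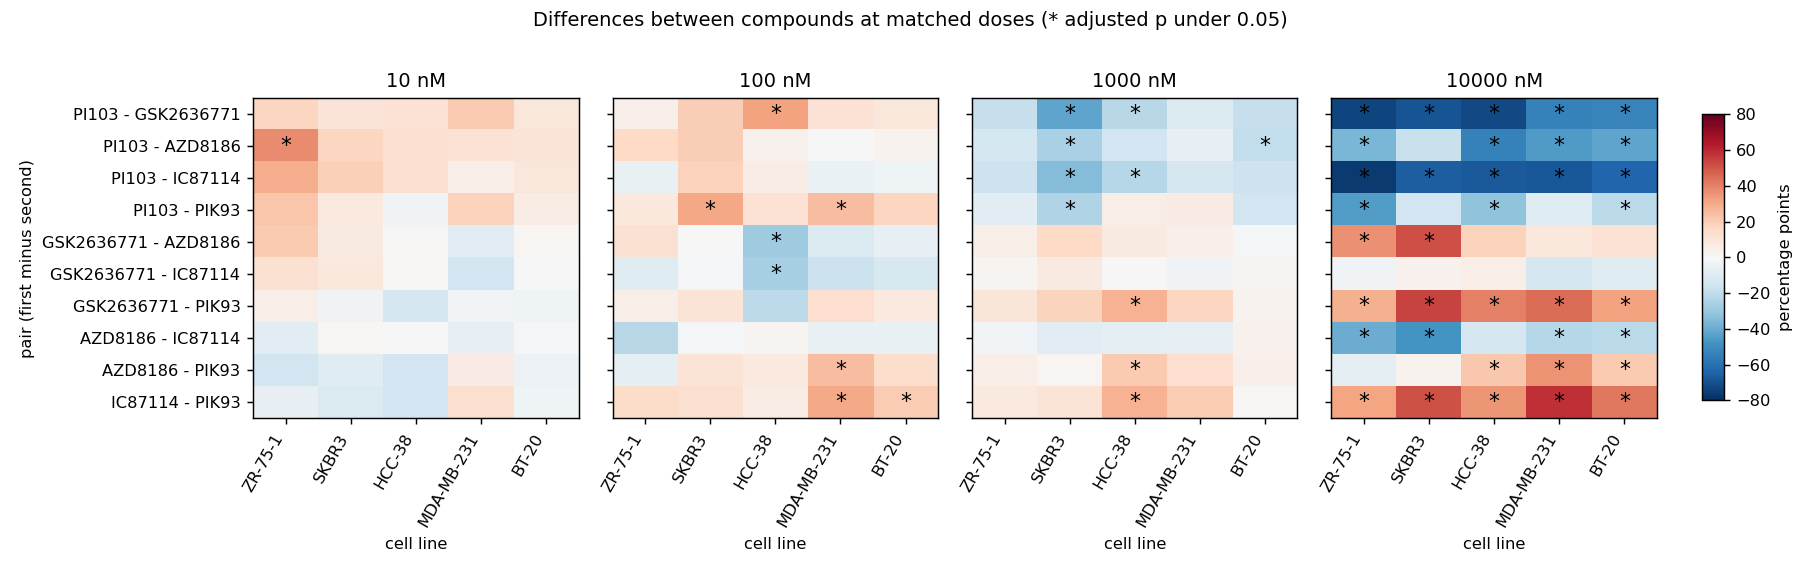
Differences in relative cell number (percentage points, first minus second compound, colour scale from -80 in blue to 80 in red) for the 10 pairs of compounds in rows and the 5 lines in columns, 1 panel per dose, with an asterisk where the limma adjusted p was under 0.05. The asterisks gather at 10000 nM, 36 of 50 comparisons, and the row GSK2636771 minus IC87114 has none there.

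GSK2636771 and AZD8186, grouped here under the beta isoform, differed from each other at 10000 nM, and in AUC, in the same 2 lines. GSK2636771 exceeded AZD8186 at 10000 nM by 51.3 percentage points in SKBR3 (SE 7.49, 95% interval 36.5 to 66.1, limma adjusted p = 1.5e-09) and by 36.6 points in ZR-75-1 (SE 9.90, 95% interval 17.1 to 56.1, adjusted p = 0.0018). The differences in BT-20, HCC-38 and MDA-MB-231, of 11.5, 18.4 and 8.66 points, did not pass, with 95% intervals of -3.45 to 26.5, 3.13 to 33.7 and -5.09 to 22.4. In AUC the differences were 44.9 in SKBR3 (SE 14.2, limma adjusted p = 0.010) and 45.4 in ZR-75-1 (SE 17.2, limma adjusted p = 0.028). At 10 and 1000 nM no line passed, and the 95% intervals over the lines at 1000 nM reached from -16.0 to 31.6 points. At 100 nM HCC-38 was 28.7 points higher with AZD8186 (limma adjusted p = 0.0091), a compound in column 1. Each compound's own lowest dose stood in the same well position on other plates. Set against it, the difference at 10000 nM was 44.6 points in SKBR3 (limma adjusted p = 0.00083) and 20.5 points in ZR-75-1 (limma adjusted p = 0.27). Without replicate 1 the ZR-75-1 difference was 33.4 points with a limma adjusted p of 0.069.

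GSK2636771 and IC87114 passed in no line at 10, 1000 or 10000 nM. At 10000 nM their difference lay between -13.9 points in MDA-MB-231 and 5.29 points in HCC-38, with 95% intervals that reached from -27.7 to 20.6 over the 5 lines, bounds that do not show that the compounds act alike. At 100 nM HCC-38 was 26.4 points lower with GSK2636771 (limma adjusted p = 0.019), and in AUC MDA-MB-231 was lower by 34.5 (limma adjusted p = 0.044). The AUC difference in MDA-MB-231 changed sign, to 6.16, without replicate 2.

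PI103 was lower than GSK2636771 and than IC87114 in all 5 lines at 10000 nM, by 53.7 to 73.4 and by 63.6 to 76.3 points, with every adjusted p at 4.4e-10 or less in limma. It was lower than AZD8186 in 4 lines, from 36.8 points in ZR-75-1 to 54.1 in HCC-38, whereas the 17.98 points in SKBR3 did not pass (95% interval of PI103 minus AZD8186 -32.8 to -3.20, limma adjusted p = 0.060). Against PIK93 it was lower in ZR-75-1 by 44.7 points, in HCC-38 by 32.2 and in BT-20 by 21.4 (limma adjusted p = 8.9e-05, 0.00036 and 0.023). SKBR3 and MDA-MB-231 did not pass, with differences of -15.4 and -9.47 points (95% intervals -30.2 to -0.655 and -23.2 to 4.28). At 1000 nM PI103 was lower than each of the other 4 compounds in SKBR3, by 24.1 to 42.01 points (limma adjusted p of 0.011 or less).

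AZD8186 and PIK93 gave like values in ZR-75-1 and SKBR3, the lines in which AZD8186 was lower than DMSO. At 10000 nM their difference was 2.54 points in SKBR3 (95% interval -12.2 to 17.3) and -7.89 points in ZR-75-1 (95% interval -27.4 to 11.6), and neither passed, which does not show that they act alike there. PIK93 was lower by 21.9 points in HCC-38, 20.9 in BT-20 and 35.9 in MDA-MB-231 (limma adjusted p = 0.023, 0.027 and 5.7e-06). IC87114 was higher than PIK93 in all 5 lines at that dose, by 31.6 to 58.5 points, and GSK2636771 by 28.7 to 53.8. AZD8186 was lower than IC87114 in 4 lines, all but HCC-38, by 21.3 to 48.1 points. PIK93 stood on other plates than the remaining compounds, so its comparisons also compare plates.

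Lines of 1 well share its pipetting and its standards. The lines were also compared within a compound, each against the mean of the other 4, in a limma fit over all compounds. This fit did not pair the lines of a well, so its SEs and p-values ignore that these lines deviate together. At 10000 nM 9 of 25 comparisons passed, 4 lower and 5 higher, where 14.9% of 870 were lower and 17.1% higher over all compounds, and 22.4% and 21.8% of compounds were lower in ZR-75-1 and SKBR3 and 6.9% higher in each. With AZD8186 SKBR3 was 30.7 points lower than the other lines (SE 4.73, limma adjusted p = 0.0039) and ZR-75-1 20.4 points lower (SE 4.73, adjusted p = 0.016). MDA-MB-231, BT-20 and HCC-38 were 19.5, 16.6 and 15.0 points higher (limma adjusted p = 0.019, 0.034 and 0.049), which mirrors the first 2 lines because the contrasts share their values. With PI103 ZR-75-1 was 17.3 points lower, and MDA-MB-231 and BT-20 were 11.9 and 12.9 points higher (limma adjusted p = 0.0055, 0.022 and 0.016). With PIK93 SKBR3 was 15.6 points lower (limma adjusted p = 0.027). GSK2636771 and IC87114 had no line that passed, with 95% intervals within -15.2 to 15.4 and -20.9 to 25.2 points. No line passed with any of the 5 compounds at 10, 100 or 1000 nM, where 0.23%, 3.79% and 7.59% were lower and 0.345%, 3.56% and 6.9% higher over all compounds.

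**Figure D4:**
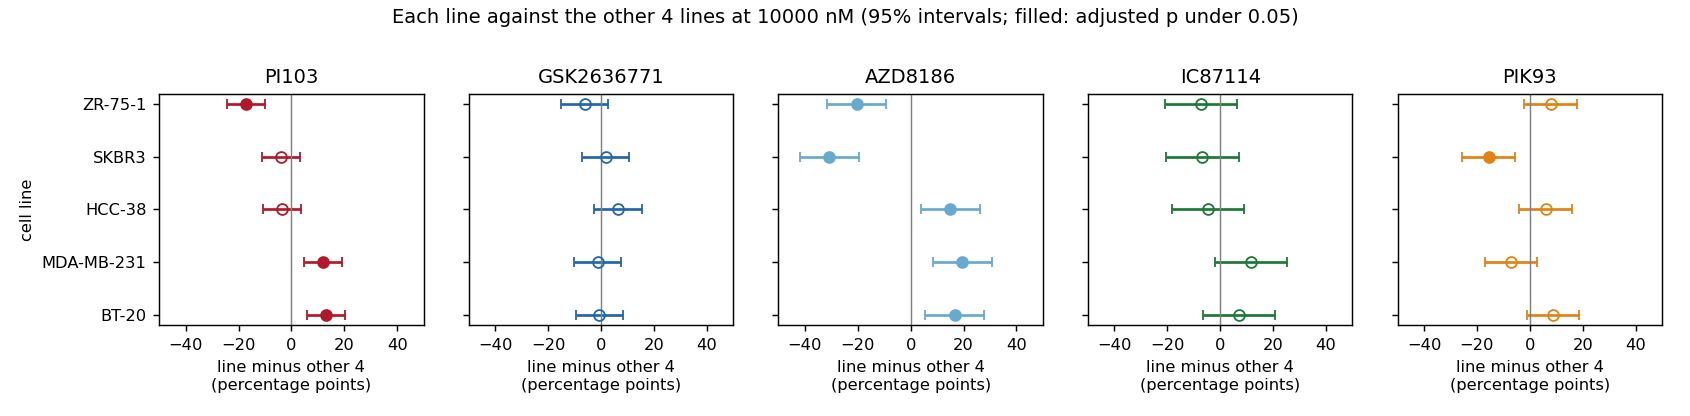
Relative cell number of each line minus the mean of the other 4 lines at 10000 nM (percentage points) in 5 panels, 1 per compound, with 95% intervals from limma and filled points where the adjusted p was under 0.05. AZD8186 has ZR-75-1 and SKBR3 to the left of 0, at -20.4 and -30.7, and the 3 triple-negative lines to the right.

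The shares of reads, which need no standards, are given beside these values. SKBR3 held 10.5% ± 1.89 of the breast cancer reads with AZD8186 at 10000 nM and 11.4% ± 0.455 with PIK93 (SD, n = 2), against 13.1% to 18.7% in the 96 DMSO wells. ZR-75-1 held 7.09% ± 0.426 with PI103 and 8.54% ± 0.0418 with AZD8186, against 9.25% to 13.6% in DMSO. On the log2 share all 9 of these line differences passed again. Set against each compound's own lowest dose, all 9 kept their direction and only ZR-75-1 with PI103 passed, at -17.2 points (limma adjusted p = 0.043), while SKBR3 with AZD8186 stood at -29.9 points (limma adjusted p = 0.053). In this setting the noise of the lowest dose, which stood on other plates, enters each value. Without replicate 1 none of the 9 passed, and without replicate 2 only SKBR3 with AZD8186 did, at -38.8 points (limma adjusted p = 0.0499). In AUC ZR-75-1 was 50.8 lower with AZD8186 (limma adjusted p = 0.013) and MDA-MB-231 26.5 higher with PI103 (limma adjusted p = 0.046), where 11.1% were lower and 10.9% higher over all compounds. With the replicate as a block, which pairs the lines of a replicate, 11 of 25 passed in AUC. Among them was SKBR3 with AZD8186, at -34.7 (limma adjusted p = 0.0047, against 0.058 without the block).

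Whether the line pattern itself differed between compounds was tested, after the values had been seen, by fitting the line-minus-others value at 10000 nM for the 10 pairs, with adjustment over 50 comparisons. The SKBR3 value was 32.5 points lower with AZD8186 than with GSK2636771 (SE 4.92, limma adjusted p = 2.1e-08), 26.6 points lower than with PI103 (adjusted p = 4.8e-06) and 15.1 points lower than with PIK93 (adjusted p = 0.011). The ZR-75-1 value was 28.2 points lower with AZD8186 than with PIK93 and 25.1 points lower with PI103 than with PIK93 (limma adjusted p = 0.0013 and 0.0042). These values use the same wells as the comparisons of lines and are not independent of them.

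Knockouts were compared with sgNT within each line by AUC. With 53 tests for each of the 5 compounds, 2 tests passed, both higher, which is 0.755%, near the 0.531% of 9222 tests over all compounds (limma, Benjamini-Hochberg over the 9222). The count is therefore no result about these compounds, and its 2 members are given as values. Both were in HCC-38 with AZD8186: sgKEAP1, whose target encodes the adaptor that sends NRF2 for degradation, had AUCs of 385.98 and 367.8 against 282.4 and 278.8 for sgNT, a difference of 96.3 (SE 15.9, limma adjusted p = 0.0060). sgHSF1, which targets the main transcription factor of the heat shock response, had AUCs of 340.6 and 388.7, a difference of 84.04 (SE 15.9, limma adjusted p = 0.022). Both passed in no setting that left out a replicate, and sgNT itself stood at 84.8% and 74.2% at 10000 nM. AZD8186 stood in column 1, and the other 13 compounds of column 1 gave HCC-38 differences of 41.2 to 131.6 for sgKEAP1 (median 85.7) and 20.5 to 95.9 for sgHSF1 (median 53.4). Compounds of interior wells had medians of 8.33 and 2.06. The 2 differences with AZD8186 lay within the range of column 1 and above that of the interior compounds, and the part of position in them was not tested.

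**Figure D5:**
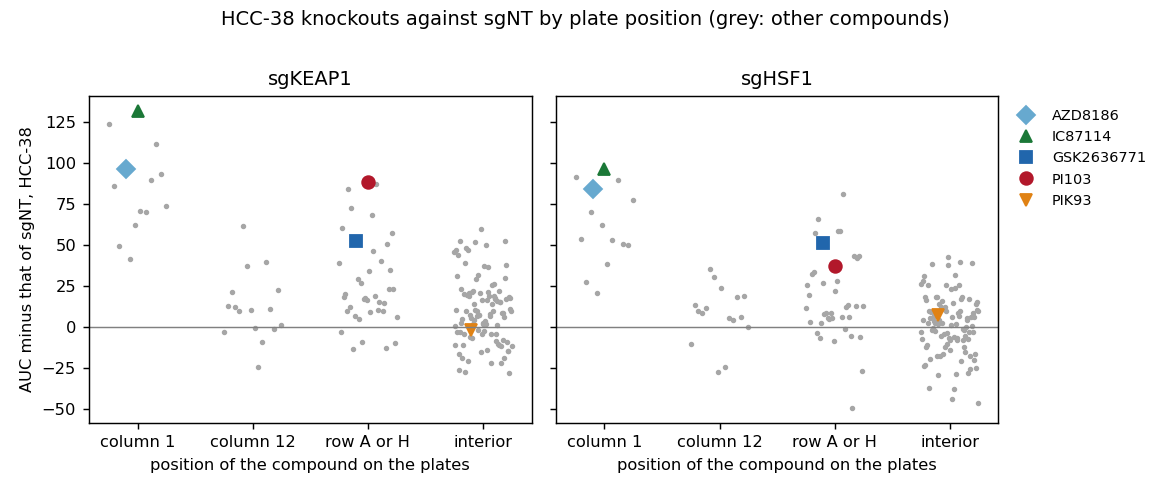
AUC of sgKEAP1 (left) and sgHSF1 (right) minus that of sgNT in HCC-38, mean of 2 replicates, for all compounds by their position on the plates, with the 5 PI3K inhibitors in colour and other compounds in grey. AZD8186, at 96.3 and 84.04, and IC87114 lie among the column 1 compounds, all of which are above 0, and PIK93 lies among the interior compounds around 0.

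No knockout passed with the other 4 compounds. The largest difference from sgNT was 87.96 for sgKEAP1 in HCC-38 with PI103 (SE 21.2, limma adjusted p = 0.11), 131.6 for the same pair with IC87114 (SE 61.9, limma adjusted p = 0.65), 73.6 for sgNFE2L2 in BT-20 with GSK2636771 (SE 18.5, limma adjusted p = 0.14) and 55.8 for sgERN1 in SKBR3 with PIK93 (SE 41.4, limma adjusted p = 0.88). The methods require a minimum response of the sgNT cells before an sgRNA is tested. Of the 25 line-compound pairs 13 had it, and HCC-38 with AZD8186 did not.

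Other compounds annotated against the pathway give the setting of these values. Of 11 such compounds, 9 were lower than DMSO in all 5 lines at their highest dose: 4 of 5 annotated against PI3K, 3 of 4 against mTOR and 2 of 2 against Akt. At the highest dose 63.7% of the line-compound combinations of all compounds were lower, and over all doses 30.8% were. The share of all compounds lower in all 5 lines was not counted, so the 9 of 11 is given as a value only. CAL101, like IC87114 a delta-selective inhibitor, passed in 0 of 20 line-dose combinations, and its means at 10000 nM lay between 85.4% in ZR-75-1 and 101.2% in MDA-MB-231. GDC0941, a pan-PI3K inhibitor, passed downward in 10 of 20, and its SKBR3 mean at 1000 nM was 41.3% ± 6.71, beside 57.9% ± 10.6 with PI103 (SD, n = 2). ZSTK474, another pan-PI3K inhibitor, passed in 9 of 20, with 53.4% ± 17.2 in SKBR3 at 1000 nM. At 10000 nM the lowest line was ZR-75-1 with GDC0941 (29.3% ± 6.74) and SKBR3 with ZSTK474 (36.6% ± 3.11), beside ZR-75-1 with PI103 (23.4% ± 0.234).

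The compounds with the most similar values were found as the lowest mean absolute difference over the 20 line-dose means, among the compounds with the same highest dose. For PI103 they were OSI027 at 11.3 points and KU0063794 at 14.4, both mTOR inhibitors, and LRRK2IN1 at 15.1. For GSK2636771 they were Parthenolide, Zebularine and Sitagliptin, at 5.06 to 6.31 points. For AZD8186 they were Veliparib, PX12 and Mdivi1, at 7.99 to 10.4, and neither GSK2636771 nor another PI3K inhibitor was among them. OSI027, KU0063794 and LRRK2IN1, like PI103, stood in an outer row of the plates (A or H). Veliparib, like AZD8186, stood in column 1, as did Phloretin, named for IC87114. The part of position in these distances was not tested. IC87114 was nearest to Parthenolide at 7.44, GSK2636771 at 7.74 and Phloretin at 8.55, and PIK93 to SU11274, Olaparib and ETP46464 at 8.82 to 9.69. These distances describe likeness of the curves over 5 lines that share wells.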

How the data were processed

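Reads were demultiplexed by the authors with bcl2fastq, counted per cell line barcode and sgRNA without alignment, allowing 1 mismatch per barcode, and deposited as counts per well. The authors converted counts to cell numbers with a log-log curve through the 5 293T standards and deposited each as a ratio to the DMSO median. That table has no DMSO wells, so relative cell numbers of all wells were recomputed from the deposited counts; they differed from the 83520 deposited values by at most 5.32e-05 on the log2 scale. The deposited concentrations, in other units, were converted to nM. The conversion ties every line of a well to its standards, so an error in these moves all lines together. Reads are not independent molecules without molecular identifiers.

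Groups came from the sample labels. Each line's sgRNAs were averaged per well. Wells were compared with DMSO by a two-sided exact permutation test (scipy 1.17.1, 4753 placements), and compounds, lines and sgRNAs by limma 3.58.1 with Benjamini-Hochberg adjustment at 0.05. Counts in edgeR 4.0.16, other scalings, replicate blocks and left-out replicates were alternatives. Each test was tried on simulated data. All 5 compounds were described in every line, and the closest 3 compounds and the largest sgRNA difference were named by rule. The members and lists were chosen with earlier results of these data known. The 6 compounds (48 wells) without deposited cell numbers were left out, and 0 per-sample columns were unused. Replicate numbers were taken from the labels, which tie them to no shared day or culture. Member wells held 238847 to 1919952 reads, and intervals cover the spread of wells.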

Additional observations from a re-analysis of the deposited data

Results flagged for a closer look

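These differences between lines or sgRNAs passed a test of the difference itself, by limma with Benjamini-Hochberg adjustment over all compounds. Each value is a line minus the average of the remaining lines. In AUC it was -50.8 for ZR-75-1 with AZD8186 and 26.5 for MDA-MB-231 with PI103. At 10000 nM, in percentage points, AZD8186 gave -30.7 for SKBR3, -20.4 for ZR-75-1, 16.6 for BT-20, 15.0 for HCC-38 and 19.5 for MDA-MB-231. PI103 gave -17.3 for ZR-75-1, 12.9 for BT-20 and 11.9 for MDA-MB-231, and PIK93 gave -15.6 for SKBR3. The 5 values of a compound share its wells, so they are not independent of each other.

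In HCC-38 with AZD8186, the AUC differed from that of sgNT by 96.3 for sgKEAP1 and by 84.04 for sgHSF1. The 13 other compounds of column 1 had medians of 85.7 and 53.4, and the part of position was not tested. The share of tests that passed with the 5 compounds, 0.755%, was near the 0.531% over all compounds.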

How the results depend on the processing

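The 16 combinations lower than DMSO became 7 with sgNT alone and 0 with exchange within plates. In that setting the smallest possible p, 0.0204, had an adjusted p of 0.0628, so none could pass (exact permutation test). In edgeR each sgRNA was tested and a combination counted as lower where a majority of its sgRNAs were. It gave 13 with the standards as offset, also with low counts filtered, and 1 with TMM, which compares shares of the pool: SKBR3 with AZD8186 at 10000 nM. With TMM the median log2 fold change turned above 0 in 6 of the 16, and BT-20 with PI103 at 10000 nM had 9 of 12 sgRNAs higher (median 0.45). Of 50 AUC pair comparisons, 22 passed, against 2 with sgNT alone, 0 with the 5 compounds fitted alone and 7 to 18 without a replicate. Of 200 at a dose, 55 passed, against 25 with sgNT alone, 34 with the 5 compounds alone, 35 relative to the own lowest dose (150 comparisons) and 35 to 48 without a replicate. In AUC, GSK2636771 minus IC87114 in MDA-MB-231 ran from -75.1 without replicate 1 to 6.16 without replicate 2, and IC87114 minus PIK93 in HCC-38 from 105.04 without replicate 1 to -18.3 without replicate 2. The 2 line differences in AUC became 0 with all 12 sgRNAs in ZR-75-1, with sgNT alone and with DMSO wells of the same plate, 6 with summed cell numbers, 5 on the log2 scale, 0 relative to the own lowest dose and 0 to 1 without a replicate. The 9 at 10000 nM became 0 with sgNT alone, 1 relative to the own lowest dose and 0 to 1 without a replicate. The settings relative to the own lowest dose for lines were chosen after seeing the data. The 2 sgRNA calls became 13 with the median of all sgRNAs as reference, 1 on the log2 scale, 0 with only pairs meeting the study's criteria, 0 by the methods' t-test after adjustment and 0 to 0 without a replicate. With 1 sample left in an arm, that sample is assumed to vary like the others, and the causes of these changes were not tested.

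With the replicate number as a block, the pair comparisons that passed were 21 in AUC and 61 at a dose, the line differences 11 in AUC and 9 at 10000 nM, and the sgRNA calls 9. At a dose, the wells of 1 replicate number shared a plate among the compounds on the same plates. Over the 4 doses, pairs of these compounds correlated from -0.607 to 0.624 in their replicate deviations (median 0.255). With 4 values a pair, these correlations cannot tell whether the numbers pair compounds. Lines of 1 well deviated together, with r from 0.418 to 0.748.

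Over the 9 permutation test settings, the 23 calls against DMSO were lost 71 times with no change of sign. A pair of wells per dose limits what could be detected, and a line's DMSO SD of 10.6 to 14.3 bounds it further.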
